A study of Oryza sativa with 40 samples.

Results

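Heat shock factors are the transcription factors that bind heat shock elements in the promoters of chaperone genes and switch them on when proteins begin to unfold. Plants carry a large family of them. Class A factors hold an activation motif and drive transcription, class B factors lack it and are known as repressors or co-regulators, and class C factors form a small class of their own.

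The genes were taken as all rice genes whose array annotation symbol or RefSeq synonym starts with OsHsf-. RefSeq named 23 such genes, and 20 of them had at least 1 probe set, 29 probe sets in all among 57194 rice probe sets. The array annotation gives 1 gene for 22436 of these, which makes 17905 genes. The 10 genes with the highest mean signal over the 40 arrays were kept, and they were measured by 13 probe sets. OsHsf-24, with a mean signal of 784, was the last gene inside this limit and OsHsf-05, with 741, the first outside. Of the 10 genes, 7 are of class A, namely OsHsf-13 (HSFA1), OsHsf-12 (HSFA2E), OsHsf-08 (HSFA2D), OsHsf-15 (HSFA4D), OsHsf-04 (HSFA4B), OsHsf-06 (HSFA5) and OsHsf-09 (HSFA9). OsHsf-23 (HSFB1) and OsHsf-24 (HSFB2C) are of class B, and OsHsf-03 (HSFC1B) is of class C.

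Flag leaves, the last leaves to open below the panicle, came from plants about 3 months old of the japonica cultivar Nipponbare, raised in a field and then entrained in a greenhouse at 32 °C in the light and 30 °C in the dark. Seedling leaves came from 17-day-old Nipponbare plants in a greenhouse at 28 °C in the light and 25 °C in the dark. Both were kept in light from 8 to 20 h and otherwise in darkness, and were sampled every 4 h from 8 h to 44 h, so that 10 time points with 2 biological replicates gave 20 arrays for flag leaves and 20 for seedling leaves. The labels name no mutant, transgene or heat treatment. Leaf type, plant age, raising and temperature go together in this design and cannot be told apart in any difference between flag and seedling leaves. The sources used here leave an uncertainty of about 1 h in the sampling hours of seedling leaves, which bears on the differences in peak time.

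Values are signal intensities, which the authors scaled to a common target of 500. The median over the rice probe sets of an array was between 48.8 and 64.4 in flag leaves and between 50.5 and 68.2 in seedling leaves, so a signal near 59 is that of a typical probe set, most of which carry little signal. The leaf markers CAB2R and LHCP, chlorophyll a-b binding proteins, and OsrbcS, a Rubisco small subunit, had means between 23182 and 34046 in flag leaves and between 15952 and 23824 in seedling leaves, while a further Rubisco small subunit probe set, RBCS-A, was at most 49.1 in flag leaves and 45.6 in seedling leaves. Of 7 seed storage protein genes, 5 had a mean signal under 100 in flag leaves and 6 in seedling leaves. The exception in both was GLUA-2, with means of 1678 in flag leaves and 1194 in seedling leaves. In flag leaves GLUB-5 was a further exception, with a mean of 116 and arrays from 4.3 to 480.6.

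A rhythm was tested with a 24 h cosine on log2(signal + 32) by limma, with Benjamini-Hochberg adjustment over all probe sets whose mean signal reached 100. The amplitude is the distance from the mid-line to the fitted peak in log2 units, so that an amplitude of 1 is a 4-fold swing between trough and peak. In flag leaves 8 of the 10 heat shock factors were called rhythmic, where 69.5% of all tested probe sets were, and in seedling leaves 5 of 10 were, against 42.5% of all tested. The shares of rhythmic heat shock factors were thus close to those of all genes. Their median amplitude was 0.39 in flag leaves and 0.26 in seedling leaves, and over all tested probe sets it was 0.43 in flag leaves and 0.24 in seedling leaves. The family was spread widely around that median. An amplitude of at least 1 was fitted for 4 rhythmic genes in flag leaves (OsHsf-03, OsHsf-08, OsHsf-15 and OsHsf-24) and for 2 in seedling leaves (OsHsf-03 and OsHsf-08). Another rule asked for cross-correlation with a cosine in each replicate, by p-values that were not adjusted, and a correlation of at least 0.5 between the replicates. It called 6 of 10 in flag leaves and 2 of 10 in seedling leaves. It called 43.9% of the probe sets that passed this limit of 100 in flag leaves and 21.4% of those in seedling leaves. Over all 57194 probe sets, dim ones included, it called 18.9% in flag leaves and 9.47% in seedling leaves, while the 10 genes were chosen for a high signal.

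**Figure D1:**
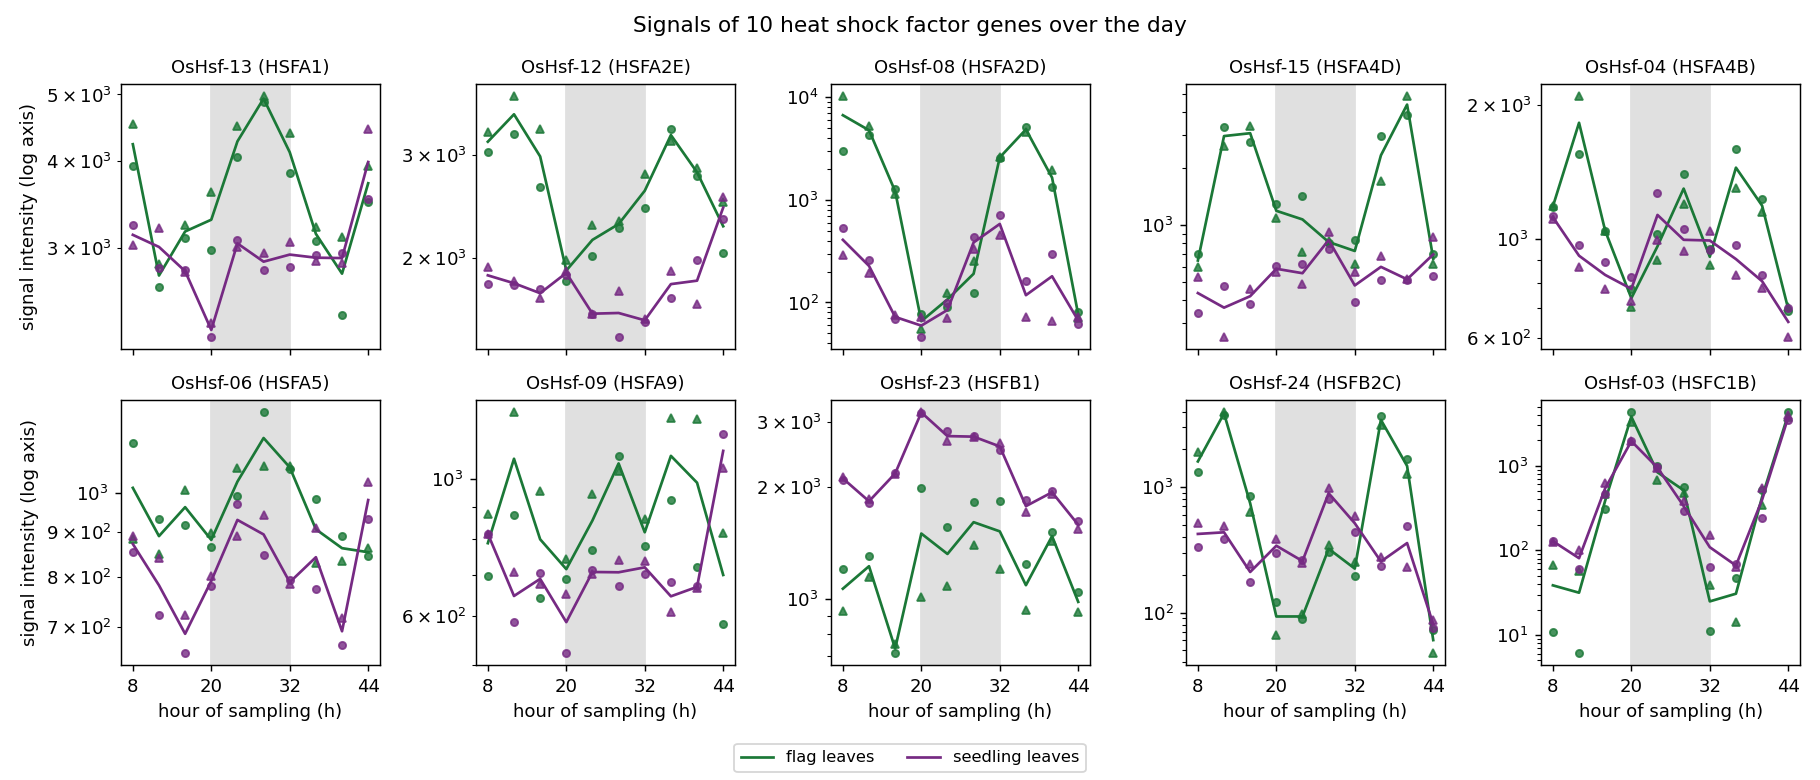
Signal intensity (log axis, with a scale of its own in each panel) of the 10 heat shock factor genes against the hour of sampling, with lines through the means of flag leaves (green) and seedling leaves (purple) and a symbol for each of the 2 replicates; the dark hours 20 to 32 h are shaded. At 36 h in flag leaves, replicates 1 and 2 stand at 5180.4 and 4533 for OsHsf-08 and at 3719 and 3141 for OsHsf-24. OsHsf-03 is highest at 20 h and 44 h in both tissues.

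OsHsf-08 (HSFA2D) is a class A2 factor, of the group that builds up most strongly under heat in tomato and Arabidopsis. In flag leaves its signal in replicates 1 and 2 was 3012 and 10352 at 8 h, 4285 and 5249 at 12 h, 1279 and 1144 at 16 h, 76.6 and 54.9 at 20 h, 91.1 and 123 at 24 h, 125 and 256 at 28 h, 2551 and 2635 at 32 h, 5180.4 and 4533 at 36 h, 1331 and 1962 at 40 h, and 81.3 and 71.0 at 44 h. In seedling leaves it was 527 and 289 at 8 h, 259 and 195 at 12 h, 69.8 and 74.8 at 16 h, 46.2 and 72.8 at 20 h, 97.9 and 71.2 at 24 h, 435 and 334 at 28 h, 706 and 459 at 32 h, 163 and 72.3 at 36 h, 294 and 66.3 at 40 h, and 61.3 and 72.3 at 44 h. Each flag leaf array at 8, 12, 16, 32, 36 and 40 h was above all 20 seedling arrays, and at 20 h and 44 h both tissues were near the median of an array.

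In flag leaves the highest hour was 8 h, with a mean of 6682 ± 5190.4 (SD, n = 2), but the replicates at 8 h differed by more than at any other flag leaf hour, and 8, 12 and 36 h overlapped. In seedling leaves the highest hour was 32 h, with a mean of 582 ± 175 (SD, n = 2). The fitted amplitude was 3.19 in flag leaves (adjusted p = 2.26e-09) and 1.20 in seedling leaves (adjusted p = 8.59e-05). A larger amplitude was found for 0.419% of the probe sets tested in flag leaves and 1.86% in seedling leaves.

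The rhythm of OsHsf-08 differed between flag and seedling leaves in size and in time. Its amplitude was larger in flag leaves by 1.98 log2 units (95% interval 1.41 to 2.56). The peak stood at 11.1 h ± 0.25 (SE) in flag leaves and at 7.08 h ± 0.60 (SE) in seedling leaves, 3.98 h later in flag leaves (95% interval 2.53 to 5.43), or 4.98 h with seedling hours taken 1 h earlier. The test of the whole rhythm gave an adjusted p of 4.25e-08. Rhythms differed for 6 of the 10 heat shock factors (OsHsf-04, OsHsf-08, OsHsf-12, OsHsf-13, OsHsf-15 and OsHsf-24), where 41.8% of all tested probe sets differed, and that of OsHsf-08 was the largest of the 6 differences.

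The brightest probe set annotated to the same RefSeq record as OsHsf-08 belongs, by the description of its target, to a neighbouring dioxygenase gene known as submergence induced protein 2A, and was not taken as a measure of the factor. It ran from 4411 to 10336 in flag leaves and from 3993 to 6889 in seedling leaves. Its amplitude was 0.34 in flag leaves (adjusted p = 0.00185) and 0.14 in seedling leaves (adjusted p = 0.224).

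OsHsf-13 (HSFA1) belongs to the class A1 factors, the constitutive master regulators of the heat response in tomato and Arabidopsis. In flag leaves its signal was 3942 and 4529 at 8 h, 2627 and 2840.1 at 12 h, 3098 and 3235 at 16 h, 2974 and 3613 at 20 h, 4056 and 4496 at 24 h, 4883 and 4979.6 at 28 h, 3852 and 4395 at 32 h, 3067 and 3215 at 36 h, 2398 and 3104 at 40 h, and 3498 and 3939.6 at 44 h. It was thus highest late in the night and lower from noon to the afternoon. In seedling leaves the lowest, the median and the highest of the 20 arrays were 2228, 2937 and 4453. The amplitude was 0.40 in flag leaves (adjusted p = 5.43e-05), with a peak at 3.15 h, and 0.05 in seedling leaves (adjusted p = 0.849). It was larger in flag leaves by 0.35 (95% interval 0.17 to 0.53, adjusted p of the difference in rhythm 0.00637).

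OsHsf-12 (HSFA2E), a further class A2 factor, was bright and shallow. In flag leaves it averaged 3514 ± 376 at 12 h, its highest hour, and 1906 ± 108 at 20 h, its lowest (SD, n = 2 each), with all 20 arrays between 1829 and 3780.0. In seedling leaves the arrays lay between 1469 and 2542, with the highest mean at 44 h. The peak in flag leaves, at 11.7 h, was close to that of OsHsf-08, but the amplitude was only 0.36 (adjusted p = 0.000148). In seedling leaves the amplitude was 0.12 (adjusted p = 0.251), and the rhythms differed (adjusted p = 0.0012).

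OsHsf-15 (HSFA4D) is the gene of the rice spotted leaf mutant spl7, whose leaves form lesions. In flag leaves it measured 698 and 596 at 8 h, 3329 and 2619 at 12 h, 2781 and 3379.9 at 16 h, 1286 and 1094 at 20 h, 1419 and 722 at 24 h, 798 and 826 at 28 h, 837 and 618 at 32 h, 2976 and 1723 at 36 h, 3867 and 4879 at 40 h, and 704 and 620.1 at 44 h. For seedling leaves the arrays ran from 254 through a median of 523 to 915. Each flag leaf value at 12, 16, 36 and 40 h was above all seedling values. OsHsf-15 peaked later in flag leaves than the A2 factors, at 14.9 h ± 0.64 (SE), with an amplitude of 1.21 (adjusted p = 0.000303). In seedling leaves the amplitude was 0.30 (adjusted p = 0.0807), which passed the threshold without replicate 2 at 24 h (adjusted p = 0.0439) or at 36 h (adjusted p = 0.0423). The rhythms differed, with an amplitude larger by 0.91 in flag leaves (95% interval 0.40 to 1.42, adjusted p = 6.74e-05).

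The other class A factors moved little. OsHsf-04 (HSFA4B), of the A4 group that is tied to oxidative stress in Arabidopsis, averaged 1826 ± 388 at 12 h and 698 ± 8.91 at 44 h in flag leaves, its highest and lowest hours (SD, n = 2 each). In seedling leaves these were 1134 ± 191 at 24 h and 653 ± 68.9 at 44 h (SD, n = 2 each). It was rhythmic in both, with amplitudes of 0.37 in flag leaves (adjusted p = 0.0103) and 0.23 in seedling leaves (adjusted p = 0.0121), and peaked at 10.5 h in flag leaves and at 5.44 h in seedling leaves. Both calls were lost without replicate 1 (amplitudes 0.41 in flag leaves and 0.27 in seedling leaves). They were also lost without replicate 2 (0.35 in flag leaves and 0.20 in seedling leaves). The cross-correlation rule called OsHsf-04 in neither tissue. The difference between the rhythms (adjusted p = 0.0338) did not pass when no filter was set on low signals (adjusted p = 0.0709), nor when any 1 of 6 arrays was left out (adjusted p between 0.0505 and 0.104). These were flag leaves replicate 2 at 12 h and replicate 1 at 36 h and 40 h, and seedling leaves replicate 2 at 12 h and both replicates at 24 h.

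OsHsf-06 (HSFA5), of a group known in tomato and Arabidopsis to hold back HsfA4 factors, stayed between 830.3 and 1241 in flag leaves and between 652 and 1029.8 in seedling leaves. Its amplitude was 0.17 in flag leaves (adjusted p = 0.0261) and 0.17 in seedling leaves (adjusted p = 0.0553), with a 95% interval of the difference from -0.15 to 0.15. In flag leaves it was not called when replicate 1 or replicate 2 was left out as a whole. The flag leaf call did not pass when no filter was set on low signals (adjusted p = 0.0831) or without replicate 1 at 28 h (adjusted p = 0.0946). The seedling value passed with the replicate number as a block (adjusted p = 0.0368) and without any 1 of 4 arrays (replicate 2 at 12, 36 and 44 h and replicate 1 at 28 h, adjusted p between 0.0315 and 0.0478). OsHsf-09 (HSFA9), of a group known from seed development in sunflower and Arabidopsis, stayed between 582 and 1281 in flag leaves and between 523 and 1179 in seedling leaves, and was called rhythmic in neither (adjusted p = 0.258 in flag leaves and 0.704 in seedling leaves).

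**Figure D2:**
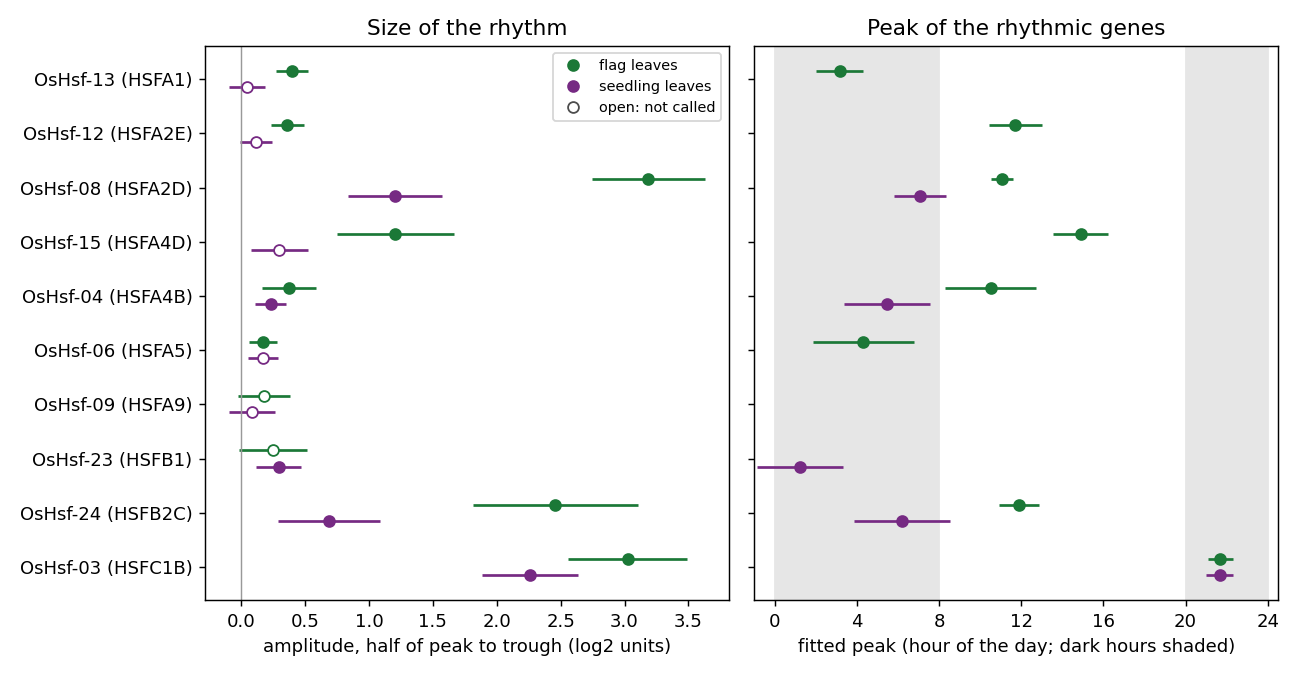
Fitted amplitude in log2 units (left) and fitted peak in hours of the day (right) of each heat shock factor in flag leaves (green) and seedling leaves (purple), with bars for 95% intervals; open circles mark amplitudes whose adjusted p was 0.05 or more, and peaks are drawn for the rhythmic genes only. OsHsf-08, OsHsf-03 and OsHsf-24 have the largest amplitudes in flag leaves, 3.19, 3.02 and 2.46.

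OsHsf-24 (HSFB2C), of class B, followed the day in flag leaves much as OsHsf-08 did. In flag leaves it measured 1313 and 1888 at 8 h, 3759 and 3968 at 12 h, 846 and 638 at 16 h, 120.3 and 65.6 at 20 h, 88.0 and 98.0 at 24 h, 302 and 342 at 28 h, 197 and 251 at 32 h, 3719 and 3141 at 36 h, 1665 and 1283 at 40 h, and 73.1 and 47.4 at 44 h. In seedling leaves it measured 330.4 and 516 at 8 h, 384 and 488 at 12 h, 176 and 245 at 16 h, 299 and 382 at 20 h, 264 and 250.4 at 24 h, 804 and 982 at 28 h, 442 and 588 at 32 h, 235 and 275 at 36 h, 486 and 229.9 at 40 h, and 74.6 and 86.7 at 44 h. The flag leaf values at 12 h and 36 h overlapped with no other flag leaf hour, and the mean at 12 h was 3864 ± 148 (SD, n = 2).

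For seedling leaves the highest hour was 28 h, late in the night, with 893 ± 125 (SD, n = 2). At 32 h, when the lights came on, OsHsf-24 stood at 197 and 251 in flag leaves while OsHsf-08 had already reached 2551 and 2635 there. The morning rise of OsHsf-24 on the second day was thus seen at a later sample than that of OsHsf-08. At 8 h of the first day, the same clock hour, OsHsf-24 stood at 1313 and 1888.

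The amplitude of OsHsf-24 was 2.46 in flag leaves (adjusted p = 5.33e-06) and 0.69 in seedling leaves (adjusted p = 0.0202). The seedling call did not pass without replicate 1 (adjusted p = 0.0502) or without replicate 2 (adjusted p = 0.0509) at 28 h. The seedling call was also lost when replicate 1 (amplitude 0.78) or replicate 2 (amplitude 0.60) was left out as a whole. The cross-correlation rule did not call OsHsf-24 in seedling leaves. The amplitude was larger in flag leaves by 1.77 (95% interval 1.01 to 2.53). The peak stood at 11.9 h ± 0.46 (SE) in flag leaves and at 6.20 h ± 1.11 (SE) in seedling leaves, 5.67 h later in flag leaves (95% interval 2.50 to 8.84), or 6.67 h with seedling hours taken 1 h earlier. The rhythms differed with an adjusted p of 2e-05. The other 2 probe sets of OsHsf-24 gave amplitudes of 2.62 and 2.57 in flag leaves, against 0.84 and 0.74 in seedling leaves. Their peaks were at 12.1 and 11.9 h in flag leaves, against 6.78 and 5.40 h in seedling leaves.

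OsHsf-23 (HSFB1), whose counterparts act as a co-activator in tomato and as a repressor in Arabidopsis, was the brightest class B gene of the array. In flag leaves its arrays ran from 712 through a median of 1200.4 to 1984, and in seedling leaves from 1542 through 2149 to 3184. Within seedling leaves it measured 3164 and 3184 at 20 h, its highest hour, and 1619.7 and 1542 at 44 h, its lowest, although both are the same clock hour. It was called rhythmic in seedling leaves, with an amplitude of 0.30 and a peak at 1.23 h (adjusted p = 0.0243). That call did not pass when no filter was set on low signals (adjusted p = 0.055). Without replicate 1 (amplitude 0.29) or without replicate 2 (amplitude 0.30) the call was lost as well. The cross-correlation rule called OsHsf-23 in neither tissue. In flag leaves the amplitude was 0.25 (adjusted p = 0.205), which passed without replicate 1 at 20 h (adjusted p = 0.0465). The difference in amplitude was -0.05 with a 95% interval of -0.36 to 0.27.

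OsHsf-03 (HSFC1B), a class C factor known in rice for a role in salt stress, was high at dusk. In flag leaves it measured 10.9 and 66.3 at 8 h, 6.10 and 57.1 at 12 h, 311 and 463 at 16 h, 4261 and 3321 at 20 h, 984 and 687 at 24 h, 554 and 473 at 28 h, 11.3 and 38.6 at 32 h, 47.3 and 14.2 at 36 h, 513 and 342 at 40 h, and 4312 and 3786 at 44 h. In seedling leaves it measured 129.5 and 127 at 8 h, 60.6 and 101 at 12 h, 462 and 622 at 16 h, 1934 and 1968 at 20 h, 966 and 931 at 24 h, 289.5 and 378 at 28 h, 64.1 and 154 at 32 h, 68.7 and 63.7 at 36 h, 243 and 551 at 40 h, and 3513 and 3963 at 44 h. Lights-off was the highest hour on both days in both tissues, with no overlap with any other hour, and around noon the flag leaf signal was at or below that of a typical probe set, so that its values there have no order.

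The amplitude of OsHsf-03 was 3.02 in flag leaves (adjusted p = 7.73e-09) and 2.26 in seedling leaves (adjusted p = 5.82e-08), and 0.556% of the tested probe sets had a larger one in flag leaves and 0.337% in seedling leaves. It peaked at 21.7 h in flag leaves and at 21.7 h in seedling leaves, a difference of 0.04 h (95% interval -0.90 to 0.98). The amplitude was larger in flag leaves by 0.76 (95% interval 0.16 to 1.36), but the test of the whole rhythm did not pass (adjusted p = 0.0957). It passed without replicate 1 (adjusted p = 0.0387) or replicate 2 (adjusted p = 0.0153) of flag leaves at 24 h, and with seedling hours taken 1 h earlier (adjusted p = 0.0235). It also passed with a constant of 1 in place of 32 (adjusted p = 0.0399) and without the 44 h arrays (adjusted p = 0.0459), so on which side of the threshold it fell depended on these settings.

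Over the mean of the 10 time points, 8 of the 10 heat shock factors were higher in flag leaves, where 39.3% of all tested probe sets were higher, and 2 were lower, where 38.3% were. The genes were chosen by mean signal over all 40 arrays, so a high flag leaf signal alone could bring a gene in. OsHsf-08 averaged 2220 in flag leaves and 218 in seedling leaves, and OsHsf-24 averaged 1190 and 377. OsHsf-05, the first gene outside, had a log2 difference of -1.48. These counts thus do not describe the whole family. The largest difference was that of OsHsf-08, 2.15 log2 units (SE 0.15, adjusted p = 2.2e-12). The log2 difference was 1.36 (SE 0.10) for OsHsf-15, 0.66 (SE 0.09) for OsHsf-24, 0.54 (SE 0.04) for OsHsf-12 and between 0.21 and 0.27 for OsHsf-04, OsHsf-06, OsHsf-09 and OsHsf-13. OsHsf-23 was lower in flag leaves, with a log2 difference of -0.86 (SE 0.07, adjusted p = 8.65e-11) and mean signals of 1249.7 in flag leaves and 2262 in seedling leaves. OsHsf-03 was lower on the log2 scale, with -0.31 (SE 0.13, adjusted p = 0.038), but its mean signal was 1013 in flag leaves and 829 in seedling leaves, so the direction depends on the scale. The size of the log2 difference also depended on the constant added to the signal, with -0.19 for 64 (adjusted p = 0.0941) and -0.65 for 1 (adjusted p = 0.0198). Its call was lost in 17 of the 40 fits that each left out 1 array, with adjusted p between 0.0506 and 0.0767. These arrays were flag leaves replicate 1 at 8, 12, 16 and 32 h and replicate 2 at 20, 24, 28, 36, 40 and 44 h, and seedling leaves replicate 1 at 36 h and replicate 2 at 12, 16, 28, 32, 40 and 44 h. In bulk leaf tissue, fewer cells with a transcript and less transcript per cell cannot be told apart.

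At noon, the mean of 12 h and 36 h, 6 of the 10 were higher in flag leaves (OsHsf-04, OsHsf-08, OsHsf-09, OsHsf-12, OsHsf-15 and OsHsf-24), against 28.2% of all tested probe sets, and 2 were lower (OsHsf-03 and OsHsf-23), against 32.3%. The choice of the genes by their signal over all arrays bears on these counts too. OsHsf-08 averaged 4812 in flag leaves and 172 in seedling leaves, a log2 difference of 4.65 (SE 0.33, adjusted p = 1.47e-11). OsHsf-24 averaged 3647 in flag leaves and 345 in seedling leaves, a log2 difference of 3.33 (SE 0.20, adjusted p = 5.63e-13). Behind these 2 genes came log2 differences of 2.43 (SE 0.22) for OsHsf-15, 0.89 (SE 0.09) for OsHsf-12, 0.81 (SE 0.11) for OsHsf-04 and 0.70 (SE 0.16) for OsHsf-09. For OsHsf-13 it was -0.01 (95% interval -0.21 to 0.19). The noon call of OsHsf-03 (-0.81, adjusted p = 0.0201) rested on signals near background, and its size was -0.56 with a constant of 64 (adjusted p = 0.0377) and -1.64 with a constant of 1 (adjusted p = 0.0129). It was lost without flag leaves replicate 1 at 12 h (adjusted p = 0.156), flag leaves replicate 2 at 36 h (adjusted p = 0.11) or seedling leaves replicate 2 at 12 h (adjusted p = 0.0836).

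At night, the mean of 24 h and 28 h, 4 were higher in flag leaves (OsHsf-06, OsHsf-09, OsHsf-12 and OsHsf-13), against 25.3% of all tested probe sets, and 2 were lower (OsHsf-23 and OsHsf-24), against 26.5%. OsHsf-24 averaged 208 in flag leaves and 575 in seedling leaves, a log2 difference of -1.30 (SE 0.20, adjusted p = 5.94e-06), with the opposite sign to noon. OsHsf-08 averaged 149 in flag leaves and 235 in seedling leaves, and its log2 difference of -0.35 did not pass (95% interval -1.04 to 0.33). OsHsf-13, which did not pass at noon, was higher in flag leaves at night by 0.63 (SE 0.10, adjusted p = 6.56e-06), with means of 4604 in flag leaves and 2953 in seedling leaves. The night calls of OsHsf-06 (0.25, adjusted p = 0.0271) and OsHsf-09 (0.41, adjusted p = 0.034) were lost when no filter was set on low signals. That of OsHsf-06 was also lost without replicate 2 at 24 h or replicate 1 at 28 h of either tissue (adjusted p between 0.0881 and 0.118). That of OsHsf-09 was lost without any 1 of the 8 arrays of these hours (adjusted p between 0.056 and 0.128) other than flag leaves replicate 1 at 24 h and seedling leaves replicate 2 at 28 h. OsHsf-15, with 0.41 (adjusted p = 0.126), passed without flag leaves replicate 2 at 24 h (adjusted p = 0.0225).

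**Figure D3:**
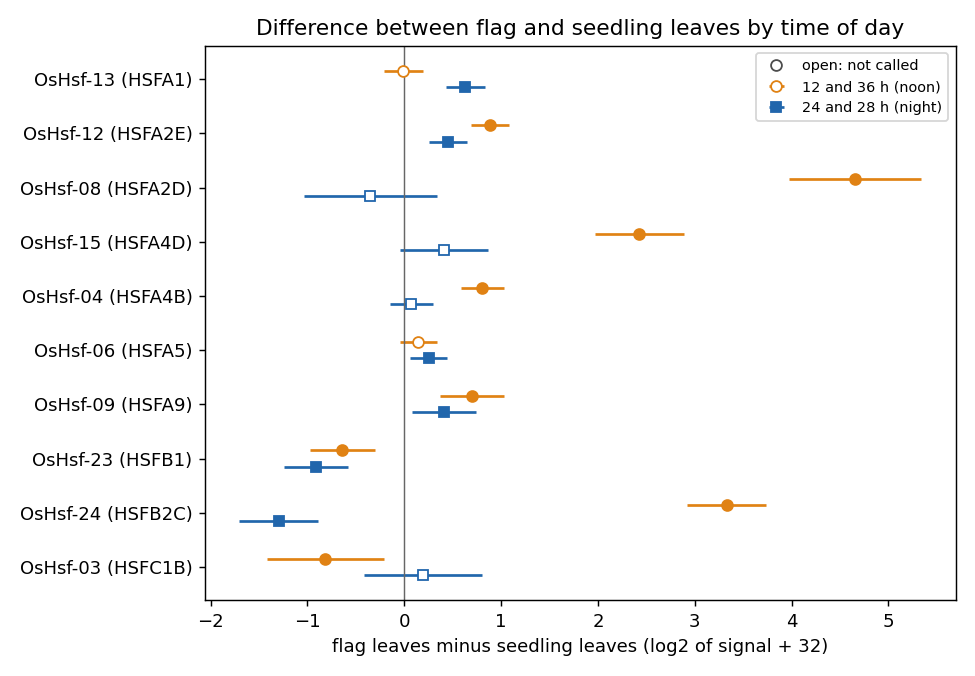
Difference of flag leaves minus seedling leaves in log2(signal + 32) for each heat shock factor at noon (orange circles, mean of 12 h and 36 h) and at night (blue squares, mean of 24 h and 28 h), with 95% intervals; open symbols had an adjusted p of 0.05 or more. OsHsf-08 lies at 4.65 at noon and -0.35 at night, and OsHsf-24 at 3.33 at noon and -1.30 at night.

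A test of any change among the 10 time points called 7 of 10 in flag leaves, against 64.4% of all tested probe sets, and 9 of 10 in seedling leaves, against 59.0%. With the replicate number as a block, OsHsf-09 (adjusted p = 0.0367) and OsHsf-23 (adjusted p = 0.00648) were also called in flag leaves. In seedling leaves OsHsf-06, OsHsf-09, OsHsf-12 and OsHsf-13 changed by this test without a called rhythm, and all 4 had their highest hour at 44 h. OsHsf-09 measured 1179 and 1039 at 44 h in seedling leaves and 523 and 650.4 at 20 h, the same clock hour of the first day. OsHsf-13 measured 3531 and 4453 at 44 h and 2228 and 2333 at 20 h. OsHsf-24 went the other way, with 74.6 and 86.7 at 44 h and 299 and 382 at 20 h. For these genes the 44 h arrays of seedling leaves lay apart from those of 20 h, in both directions.

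Between the matching 4 time points of the second and the first day, none of the 10 heat shock factors differed in flag leaves by limma (1 at an unadjusted p under 0.05, OsHsf-24), where 0.295% of all tested probe sets were higher and 0.436% lower on the second day. OsHsf-24 had a log2 difference of -0.57 there (adjusted p = 0.0619), which passed with the replicate number as a block (adjusted p = 0.0317) and without replicate 1 at 8 h (adjusted p = 0.0281) or replicate 2 at 20 h (adjusted p = 0.0446). The other probe sets of OsHsf-24 gave -0.69 (adjusted p = 0.0494), which passed, and -0.38 (adjusted p = 0.536) by limma in flag leaves. In seedling leaves 1 of 10 differed, OsHsf-23 with -0.23 (adjusted p = 0.00671), against 4.26% of probe sets higher and 5.87% lower. OsHsf-13 in seedling leaves, with 0.18 (adjusted p = 0.0838), passed with the replicate number as a block (adjusted p = 0.0341) and without replicate 1 at 44 h (adjusted p = 0.0334). OsHsf-24 in seedling leaves, with -0.38 (adjusted p = 0.124), passed without replicate 1 at 40 h (adjusted p = 0.0142).

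The genes most like OsHsf-08 and OsHsf-24 were sought among 2071 named genes by Pearson's r over the 20 time-point means of both tissues, each tissue centred. All points share the same arrays, so r is given as a description. Nearest to OsHsf-24 were CLPB-M, a ClpB chaperone that pulls proteins out of aggregates (r = 0.968), OsSGT1, a co-chaperone of HSP90 (r = 0.966), HSP81-1, an HSP90 chaperone (r = 0.959), OsUBC5b, a ubiquitin-conjugating enzyme (r = 0.952), and OsC3H11, a zinc finger gene (r = 0.950). Nearest to OsHsf-08 were OsMSRA4, a methionine sulfoxide reductase that repairs oxidised protein (r = 0.968), the class B factor OsHsf-14 (HSFB2A, r = 0.951), CML18, a calmodulin-like gene (r = 0.940), GBP (r = 0.939) and OsPIP2;1, an aquaporin (r = 0.932). Within the tissues, r of the listed genes with OsHsf-24 was between 0.98 and 0.99 in flag leaves. In seedling leaves it was lower, from 0.67 (OsUBC5b) to 0.94 (CLPB-M). With OsHsf-08 it was between 0.96 and 0.99 in flag leaves and from 0.66 (CML18) to 0.88 (OsHsf-14) in seedling leaves. Between OsHsf-08 and OsHsf-24, r was 0.860, with 0.877 over the 10 flag leaf points and 0.753 over the 10 seedling points.

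Chaperone genes, known targets of heat shock factors, were counted by name. Of 22 small heat shock protein genes, whose products hold unfolding proteins in solution, 19 had a probe set and 14 were tested in each tissue. In flag leaves 13 of the 14 were rhythmic, where 69.5% of all tested probe sets were, and in seedling leaves 8 of 14 were, against 42.5%. A rhythm with a peak between 8 and 16 h was called for 12 of the 14 in flag leaves, against 20.7% of all tested probe sets, and for 5 of the 14 in seedling leaves, against 11.2%. Their median amplitude was 1.44 in flag leaves and 0.45 in seedling leaves, where that of all tested probe sets was 0.43 in flag leaves and 0.24 in seedling leaves. The rhythm differed between the tissues for 13 of 14, against 41.8% of all tested. The 3 ClpB genes were all rhythmic in flag leaves, and 1 of 2 tested was in seedling leaves. Of the 3 HSP90 genes, 2 were rhythmic in flag leaves and 0 in seedling leaves by limma, where the lowest adjusted p was 0.0603. The same shares of all tested probe sets, 69.5% in flag leaves and 42.5% in seedling leaves, stand beside the ClpB and HSP90 counts, which hold too few genes to be read against them. At noon 10 of 14 small heat shock protein genes were higher in flag leaves and 1 was lower. There 3 of 3 ClpB genes and 2 of 3 HSP90 genes were higher, where 28.2% of all tested probe sets were higher and 32.3% were lower. CLPB1, with means of 347 in flag leaves and 77.0 in seedling leaves, passed the filter on low signals in flag leaves only. The filter thus favoured a higher flag leaf signal for CLPB1, and the ClpB count at noon rests on CLPB-M and CLPB-C.

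OsHsp18.6, the small heat shock protein gene with the lowest adjusted p in flag leaves, has a probe set that can match several genes. It measured 8132 and 19524 at 12 h in flag leaves, against 422 and 377 in seedling leaves, and 179 and 142 at 28 h in flag leaves, against 358 and 364 in seedling leaves. Its amplitude was 3.56 in flag leaves and 1.25 in seedling leaves, with peaks at 11.2 h in flag leaves and 8.69 h in seedling leaves. OsHsp16.0 had an amplitude of 3.15 in flag leaves, with a peak at 12.1 h, and 0.55 in seedling leaves (adjusted p = 0.0818). OsHsp18.0 peaked later in both, at 14.8 h in flag leaves with an amplitude of 2.44 and at 17.6 h in seedling leaves with 0.62.

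Of the ClpB genes, CLPB-M measured 1654 and 2157 at 12 h in flag leaves, against 229 and 223 in seedling leaves. Its peaks, at 12.2 h in flag leaves and 6.20 h in seedling leaves, lay beside those of OsHsf-24. As CLPB-M was the named gene most like OsHsf-24 over the same arrays, the near peaks are no separate result. The probe set of CLPB-M can match several genes. CLPB1 had an amplitude of 1.76 in flag leaves, and its mean signal of 77.0 in seedling leaves was too low for it to be tested there. CLPB-C had an amplitude of 0.77 in flag leaves and 0.27 in seedling leaves (adjusted p = 0.261).

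HSP81-1 measured 23475 and 26535 at 12 h in flag leaves, against 9748 and 11317 in seedling leaves, and 1526 and 1111 at 44 h in flag leaves, against 1435 and 1692 in seedling leaves. At 20 h, the same clock hour of the first day, HSP81-1 measured 2062 and 1643 in flag leaves, but 9137 and 10167 in seedling leaves. The low seedling signal at 44 h was thus not seen at dusk of the first day. Its amplitude was 2.01 in flag leaves and 0.52 in seedling leaves (adjusted p = 0.0789). The other HSP90 genes were nearly flat in flag leaves, with an amplitude of 0.23 for HSP81-2 and 0.09 for HSP81-3. OsBiP1, an HSP70 chaperone of the endoplasmic reticulum, kept another time, with a peak at 17.9 h and an amplitude of 0.96 in flag leaves, and was not called in seedling leaves (0.20, adjusted p = 0.626). Its seedling mean was 6275 at 20 h and 1466 at 44 h, and that of CLPB-C was 2054 at 20 h and 628 at 44 h. That of HSP81-3 was 22795 at 20 h and 23757 at 44 h, so not every chaperone gene was low at 44 h.

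**Figure D4:**
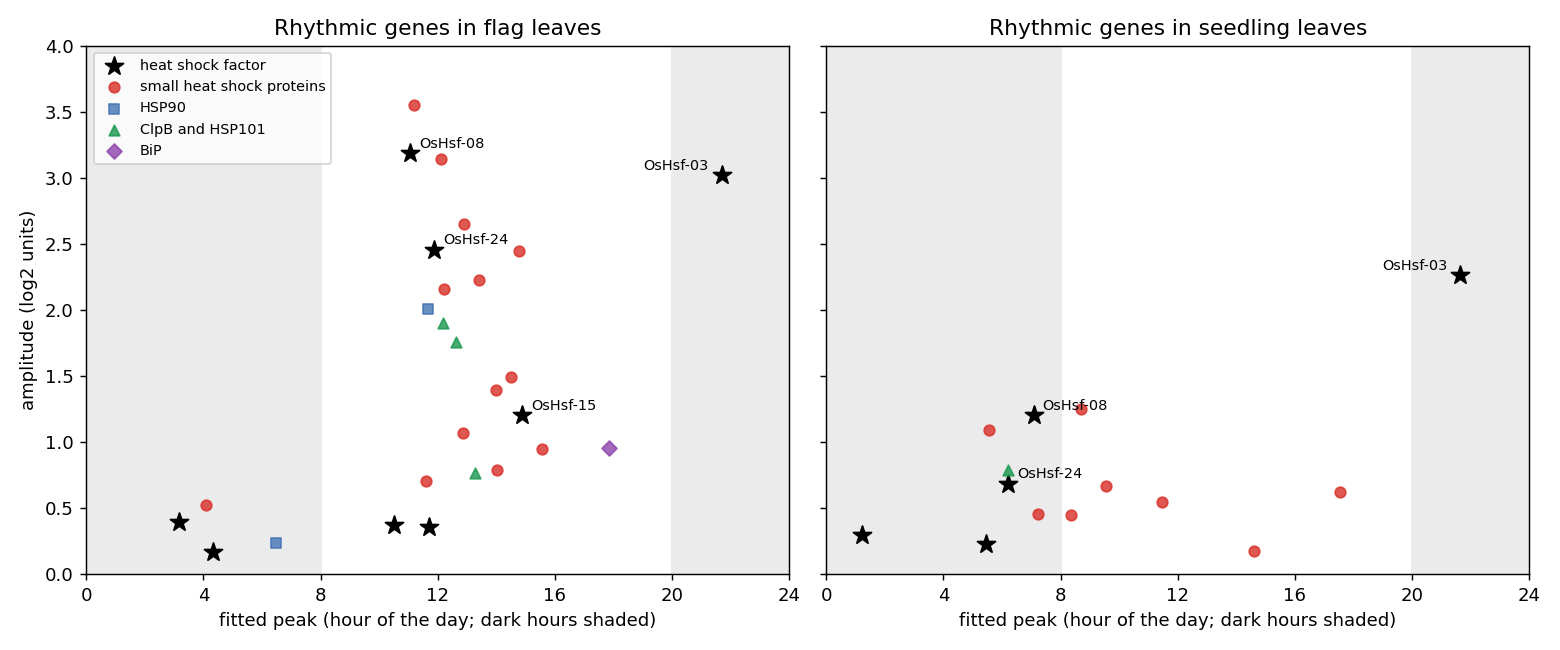
Fitted amplitude in log2 units against the fitted peak in hours of the day for the rhythmic genes among the 10 heat shock factors (stars), the small heat shock proteins (circles), HSP90 (squares), ClpB (triangles) and BiP (diamond), in flag leaves on the left and seedling leaves on the right, with dark hours shaded. In flag leaves 12 of 13 small heat shock protein genes lie between 8 and 16 h, and in seedling leaves 5 of 8 do.

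The 10 dimmer heat shock factor genes with a probe set were tested where their mean signal allowed it. In flag leaves 6 of 6 tested were rhythmic, with a median amplitude of 1.82, and in seedling leaves 5 of 7 were, with 0.77. The genes tested were not the same in both tissues. OsHsf-21 passed the filter on low signals in flag leaves only, with means of 166 in flag leaves and 56.8 in seedling leaves. OsHsf-01 (68.5 in flag leaves and 222 in seedling leaves) and OsHsf-19 (88.4 and 136) passed it in seedling leaves only. The counts and medians thus do not compare the tissues over the same genes. Of all tested probe sets 69.5% were rhythmic in flag leaves and 42.5% in seedling leaves, with median amplitudes of 0.43 in flag leaves and 0.24 in seedling leaves. OsHsf-14 (HSFB2A) ran from 12.6 to 2798 in flag leaves and from 91.4 to 742 in seedling leaves. Its amplitude was 2.46 in flag leaves, with a peak at 11.0 h, and 0.88 in seedling leaves, with a peak at 6.54 h. OsHsf-05 (HSFC2A), just outside the 10, peaked at 8.61 h in flag leaves with an amplitude of 1.93 and at 6.37 h in seedling leaves with 1.10.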

How the data were processed

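The deposited values are linear signal intensities, 1 per probe set and array. The authors obtained them with the MAS5 method of GCOS, whose versions are not given in the sources used here, and scaled each array to a target of 500. No further normalization was applied, and 187 control rows were left out. The number of arrays limits the precision. The labels call the samples biological replicates without naming the plants behind each, so p-values measure the spread between these samples.

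Hours and tissues were read from the labels and the study's methods. The label 12:00am of the samples taken at 12 h and 36 h was read as noon. The seedling hours hold a doubt of about 1 h.

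The members and the gene lists were chosen with earlier results of these data known. Each gene was represented by its brightest probe set, except OsHsf-08, whose brightest probe set is described as another gene. This exception was made after the data were seen. The genes named were all 10 heat shock factors, the small heat shock protein, HSP90, ClpB and BiP genes with the clearest rhythms, and the 5 genes most like OsHsf-08 and OsHsf-24. Lists were formed from symbols and synonyms, and no gene of the tables matched for DnaJ proteins or other HSP70 proteins. No sequences are shown.

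Log2(signal + 32) was fitted with limma 3.58.1 in R 4.3.3 for probe sets with a mean of 100 or more in the tissue, or in either tissue for comparisons of both. A rhythm is an F test of a 24 h cosine and sine beside linear time. Level, noon, night, day and time tests used the means of the time points. All p-values of limma were adjusted by Benjamini-Hochberg over every tested probe set, while those of the cross-correlation rule were not adjusted. The cross-correlation rule compared each replicate with 60 cosines set 0.4 h apart, in Python 3.11.15 with numpy 2.4.6 and pandas 2.3.3, and required p of at most 0.05 in both replicates. The study's ARSER test was not run. Figures were drawn with matplotlib 3.10.9, and the fits were tested on simulated data. Alternatives were constants of 1, 16 and 64, filters, quantile normalization, no linear time, a replicate block, each array or replicate left out, the brightest OsHsf-08 probe set, no 44 h arrays and seedling hours 1 h earlier, of which the last 2 were added after seeing the data.

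Arrays with the same replicate number deviated together from the means of their time points in all 45 pairs of time points, with r between 0.219 and 0.483 in flag leaves and between 0.287 and 0.562 in seedling leaves, so the numbers were taken to pair the samples. The fits without this block are the ones given unless stated, so their p-values leave the pairing out. With the block 17287 probe sets were rhythmic in flag leaves, against 16254 without it. In seedling leaves the numbers were 11795 with the block and 10330 without it.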

Additional observations from a re-analysis of the deposited data

Results flagged for a closer look

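The rhythm of 6 heat shock factors differed between flag and seedling leaves by limma's test of the difference itself, over all 40 arrays. The size given here is the amplitude of the cosine that remains when the seedling rhythm is subtracted from the flag leaf rhythm, in log2 units, so that it holds differences in amplitude and in time. It was 2.78 for OsHsf-08 (adjusted p = 4.25e-08), 2.49 for OsHsf-24 (adjusted p = 2e-05) and 1.49 for OsHsf-15 (adjusted p = 6.74e-05). For the shallow rhythms it was 0.39 for OsHsf-12 (adjusted p = 0.0012), 0.36 for OsHsf-13 (adjusted p = 0.00637) and 0.39 for OsHsf-04 (adjusted p = 0.0338), the last of which was lost without any 1 of 6 arrays. The difference of OsHsf-12 was lost without replicate 1 (adjusted p = 0.162) or replicate 2 (adjusted p = 0.0708), that of OsHsf-13 likewise without either (adjusted p = 0.238 and 0.155), that of OsHsf-04 without either (adjusted p = 0.265 and 0.348), and that of OsHsf-15 without replicate 2 (adjusted p = 0.0547). Plant age, leaf type, raising and temperature cannot be told apart in these differences.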

How the results depend on the processing

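Of 2540 single-gene values under alternative settings, 2460 kept their direction and their side of the threshold, 64 no longer passed, 16 newly passed and 0 reversed. Most of these settings left out 1 array. Amplitudes and sizes of the difference in rhythm are never negative, so only the level, noon and night differences could have reversed. In flag leaves OsHsf-04 and OsHsf-06 were no longer called rhythmic without replicate 1 or without replicate 2. Without replicate 1 or 2 the heat shock factors called rhythmic in seedling leaves numbered 2 in both cases, against 5, as they did by the cross-correlation rule with 2. Those whose rhythm differed between the tissues numbered 3 and 2, against 6. With each array left out in turn these counts ran from 4 to 7 and from 5 to 7. Those lower in flag leaves numbered 1 with a constant of 64, with no filter and with quantile normalization, and 1 to 2 with each array left out, since OsHsf-03 was lost, while 8 were higher throughout. The day comparison in flag leaves gave 1 with a filter of 200 and 1 with the replicate block, and 0 to 1 with each array left out. In seedling leaves it gave 2 with the replicate block and 1 to 2 with each array left out (2 without replicate 1 at 40 h or at 44 h). The counts of genes that changed over time ran from 7 to 8 in flag leaves and from 7 to 10 in seedling leaves with each array left out. The replicate block changed no call of the 10 genes beyond those given above for OsHsf-06, OsHsf-09, OsHsf-13, OsHsf-23 and OsHsf-24. Fits of level, noon, night, time and day without a whole replicate were not run, since no residual degrees of freedom remain. Where 1 array was left out, the lone sample of its time point was assumed to vary like the others. Signals below about 59 limit OsHsf-03 in the day and OsHsf-08 and OsHsf-24 at dusk.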
